A study of Mus musculus with 12 samples.

Results

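Neuropeptide precursors were described in neurons collected by laser capture from mouse entorhinal cortex, in its medial field (MEC) and its lateral field (LEC), which carry most traffic between neocortex and hippocampus. The set held 10 named genes: Penk, Pdyn, Grp, Sst, Cck, Npy, Vip, Tac1, Adcyap1 and Crh. Members were all array probes whose gene name, brought up to date, was one of these. This gave 13 of 41174 probes for 9 genes. Penk was found under its older name Penk1. No spot bore the name Crh, which was not analysed here. After a filter on dim probes, 9 probes of 8 genes remained, of 10894 genes in the whole series. Adcyap1 did not pass.

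RNA came from affected Naglu-/- mice, a model of Sanfilippo syndrome type B without the lysosomal enzyme alpha-N-acetylglucosaminidase, which takes part in heparan sulfate breakdown, and from unaffected Naglu+/- mice. The Naglu-/- mice are called mutants here and the Naglu+/- mice, which still carry 1 disrupted allele, controls. All mice were C57BL/6 females aged 2 months. From each brain region 500 neurons were taken out of cresyl violet-stained sections of 12 µm, and linear amplification of the RNA preceded dye labelling. For each region there were 3 pairs of mutant and control samples, and each pair was run on 2 dual-dye Agilent arrays with the dyes exchanged, 12 arrays in all. Whether equally numbered pairs of the 2 regions shared their mice is not given in the labels.

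A neuropeptide is cut from a larger precursor protein in the regulated secretory pathway, stored in dense-core granules and released on strong firing to act on receptors coupled to G proteins. In the cerebral cortex most of these precursors mark kinds of inhibitory interneuron: Sst, Npy and Vip label distinct or overlapping interneuron groups, while Cck is also made by many pyramidal cells. Penk and Pdyn encode the enkephalins and dynorphins, the opioid peptides, and Grp encodes gastrin-releasing peptide.

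The promoters of 3 members are shown because several peptide precursor genes are textbook targets of cyclic AMP signalling through the cAMP response element, and because these 3 stand for different results below: Sst fell in MEC, whereas Cck and Vip did not pass the test. Each sequence is the RefSeq window of assembly GRCm38.p6 from 250 bases before to 50 bases after the gene's start, 5′ to 3′ on the gene's strand. Capitals mark the full element TGACGTCA or its 5-base core, which reads TGACG on one strand and CGTCA on the other. Sst lies on the minus strand at chr16:23890795-23891094, Cck on the minus strand at chr9:121495645-121495944 and Vip on the plus strand at chr10:5638968-5639267.
Sst: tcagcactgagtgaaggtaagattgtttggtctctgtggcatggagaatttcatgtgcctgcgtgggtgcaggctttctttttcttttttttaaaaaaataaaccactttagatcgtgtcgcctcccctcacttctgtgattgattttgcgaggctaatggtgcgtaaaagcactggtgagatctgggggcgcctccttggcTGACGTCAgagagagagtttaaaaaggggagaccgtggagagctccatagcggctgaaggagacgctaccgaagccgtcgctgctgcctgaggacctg
Cck: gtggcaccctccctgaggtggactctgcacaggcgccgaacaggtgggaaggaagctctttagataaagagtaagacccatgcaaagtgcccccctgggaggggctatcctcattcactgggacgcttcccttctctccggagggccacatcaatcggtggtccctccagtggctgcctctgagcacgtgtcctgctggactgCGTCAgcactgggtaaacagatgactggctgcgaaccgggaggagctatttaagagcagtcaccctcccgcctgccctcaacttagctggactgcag
Vip: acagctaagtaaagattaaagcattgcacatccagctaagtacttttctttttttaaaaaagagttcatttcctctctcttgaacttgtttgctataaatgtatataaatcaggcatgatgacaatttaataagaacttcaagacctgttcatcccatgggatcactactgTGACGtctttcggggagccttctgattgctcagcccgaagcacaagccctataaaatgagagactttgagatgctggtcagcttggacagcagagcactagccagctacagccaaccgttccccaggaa
The full element stood 48 bases before the Sst start and holds the core on both strands, where the copies overlap. The core began 47 bases before the Cck start and 79 bases before the Vip start. Windows were at hand for 7 member genes (9 windows), and the core was found in 5 of these genes (Sst, Cck, Vip, Tac1 and Adcyap1). Of all 32851 promoter windows, 1.79% held the full element and 20.8% held the core on either strand. These matches describe the letters alone.

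Signals were low on all arrays. The median raw signal per array was 67 to 77.9 (Cy3) and 44.4 to 50.6 (Cy5) on MEC arrays, and 79.3 to 92.5 (Cy3) and 49.3 to 54.9 (Cy5) on LEC arrays. The 6 MEC arrays were scanned in one session and the 6 LEC arrays in another, so region and scan session cannot be told apart in any comparison of levels. Markers of neurons and of glia were both measured: 7 of 12 excitatory and 13 of 18 inhibitory neuron markers were kept, beside 11 of 13 microglial, 6 of 10 astrocyte and 8 of 11 oligodendrocyte markers. The excitatory marker Slc17a7 was not kept. For replicate 2 of both regions, the authors' value table gives a mutant ratio of the opposite sign to the labelled dyes. The table's sign was followed and the labels do not settle it, so the ratios of Penk, Grp, Sst and Cck are also given turned as labelled. Under the table's sign the mean ratio of the microglial markers was above 0 in 6 of 6 pairs, with 0.33, 0.32 and 0.31 in MEC and 0.21, 0.56 and 0.26 in LEC. Among them Lyz2, the lysozyme of myeloid cells, had 1.67, 1.80 and 1.89 in MEC and 1.17, 2.50 and 1.64 in LEC. Turned as labelled, replicate 2 read −1.80 in MEC and −2.50 in LEC for Lyz2, against the sign of the other 4 pairs. No direction was assigned from these values. Levels, which average both dyes, do not depend on this choice. Naglu itself was well above background in 12 of 24 readings at its brighter probe and in 0 of 24 at the other, with log2 mutant ratios of −0.04, 0.09 and 0.05 in MEC and 0.01, −0.04 and 0.06 in LEC.

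How far each probe rose over local background set what could be measured. A reading is 1 dye on 1 array, 12 per region. Penk, Pdyn, Sst and Cck were well above background in 12 of 12 readings in MEC and 12 of 12 in LEC at the probe used. Grp was so in 5 of 12 MEC readings and 12 of 12 LEC readings. Npy reached 4 of 12 readings in MEC and 9 of 12 in LEC, and Vip 6 of 12 in MEC and 7 of 12 in LEC. These 3 genes passed the filter through LEC alone. The Tac1 probe used reached 11 of 12 in MEC and 12 of 12 in LEC. Adcyap1, which encodes the peptide PACAP, reached 0 of 24, so no fold was computed for it. No member was saturated in any reading.

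**Figure D1:**
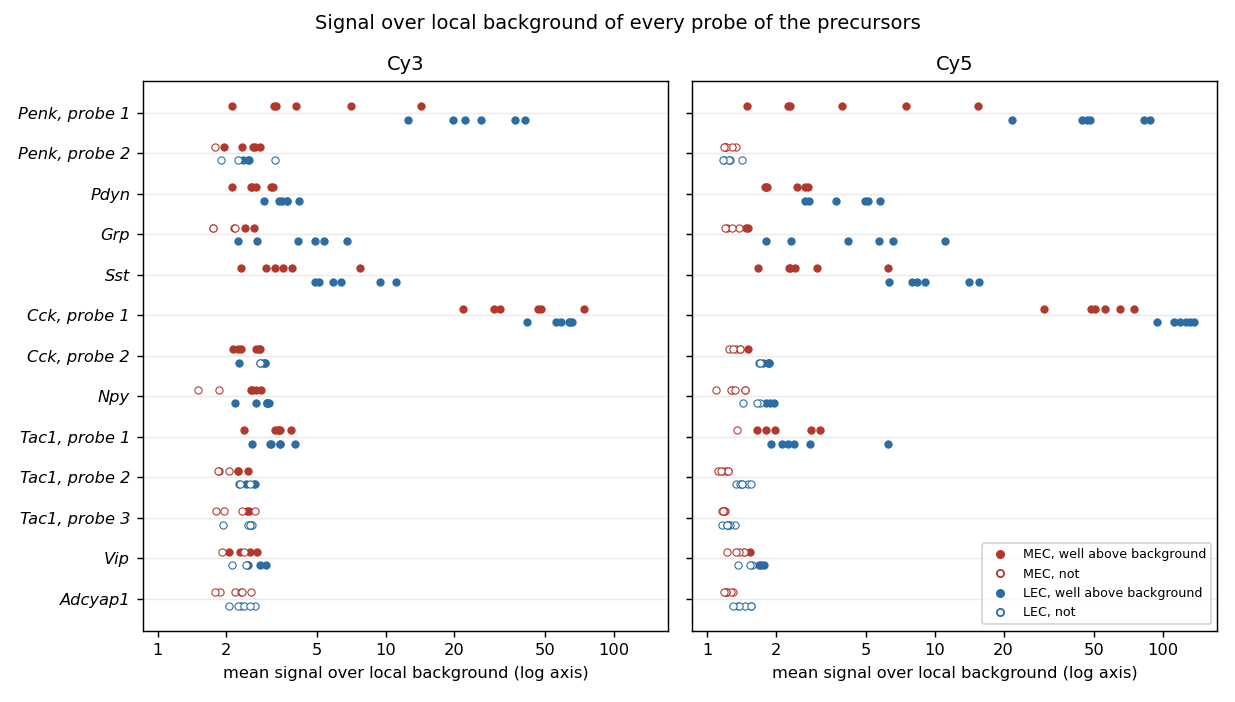
Mean signal over local background (log axis) in Cy3 and Cy5 for all 13 probes, with 6 readings per region and dye. Filled points are readings well above background and open points are not. Penk probe 1 ranged from 2.12 to 14.3 in MEC against 12.5 to 40.9 in LEC in Cy3, while Adcyap1 had open points throughout.

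The comparison of levels asked whether the precursors were present at different levels in MEC and LEC, over both genotypes. Penk and Sst were lower in MEC than in LEC, by 5.74-fold and 1.82-fold, or by 9.64-fold and 2.55-fold with Agilent's processed signals. Grp was lower too, by 2.00-fold here and 5.10-fold with processed signals, with only 5 of 12 MEC readings well above background. None of these 3 folds was fixed by these data. None of the 8 kept precursors was called higher in MEC. Across all 10894 genes, 13.9% were called lower and 11.8% higher in MEC at an adjusted p of 0.05. The members' count of 3 lower of 8 stands beside that background. The median difference of the 8 was −0.23 on the log2 scale, against −0.02 over all genes. Both describe the kept members only, since a gene that passed the filter through LEC alone is more likely to be one that is lower in MEC. In bulk samples, fewer cells of a type and less RNA per cell cannot be told apart.

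Penk showed the largest difference of the 8 kept precursors. Penk, the enkephalin precursor, had log2 normalised intensities of 7.04, 7.96 and 7.51 in the MEC pairs, against 10.26, 9.39 and 10.41 in the LEC pairs. The regions did not overlap, and the highest MEC pair stayed below the lowest LEC pair. The difference of −2.52 ± 0.29 (SE, n = 3 pairs per region) passed limma's test (adjusted p = 0.00154) and ranked 1 of 10894 genes by size. Penk passed in 20 of 20 alternative settings, all of which read it at the same probe. With Agilent's processed signals it was 9.64-fold lower in MEC. The probe lies in build mm8 on chromosome 4, 4060735 to 4060794, on the minus strand. A second Penk probe, at 4061458 to 4061517, was well above background in only 5 of 12 MEC and 3 of 12 LEC readings and was not kept. It read 5.94, 5.91 and 5.88 in MEC and 5.81, 5.82 and 5.77 in LEC, and so did not show the difference. No mm8 annotation was at hand to place either probe in an exon or UTR.

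Pdyn, the dynorphin precursor, gave 6.48, 6.52 and 6.66 in the MEC pairs, against 6.50, 6.70 and 7.17 in the LEC pairs. The regions overlapped, and LEC replicate 3 stood highest. Its difference of −0.24 ± 0.15 (SE) did not pass (adjusted p = 0.284). It was −0.05 without LEC replicate 3 and −0.38 without LEC replicate 1, neither of which passed, and it passed with files and dyes as labelled (adjusted p = 0.0365).

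Grp, the precursor of gastrin-releasing peptide, a bombesin-like peptide, had log2 levels of 5.90, 6.03 and 5.88 in the MEC pairs, against 6.99, 7.08 and 6.75 in the LEC pairs. The difference of −0.998 ± 0.087 (SE) passed (adjusted p = 0.000669), and no MEC pair reached a LEC pair. Grp entered the test through LEC alone, and such genes are more likely to be lower in MEC. With no filter on dim probes the difference also passed (adjusted p = 0.00104). With 7 of 12 MEC readings not well above background, the fold depended on the background correction: processed signals gave −2.35, or 5.10-fold lower in MEC (adjusted p = 7.86e-05). With only 1 genotype's channels, Grp differed by a similar amount and did not pass: −0.96 with mutant channels (adjusted p = 0.214) and −1.04 with control channels (0.076). Which channel holds which genotype depends, for replicate 2, on the unsettled direction.

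Sst, the somatostatin precursor, had log2 levels of 6.80, 7.54 and 6.69 in the MEC pairs, against 7.99, 8.06 and 7.58 in the LEC pairs. MEC replicate 2 stood above the other MEC pairs and just below the lowest LEC pair. The difference was −0.86 ± 0.22 (SE, adjusted p = 0.0246), the weakest of the 3 calls. It was lost without MEC replicate 1 (adjusted p = 0.0998), MEC replicate 3 (0.0782), LEC replicate 1 (0.0622) or LEC replicate 2 (0.0754), and with no filter on dim probes (0.0505). It was also lost with mutant channels (−1.07, adjusted p = 0.095) or control channels (−0.66, adjusted p = 0.291) alone, which depend on the direction of replicate 2 as for Grp. The probe lies in mm8 on chromosome 16, 23805039 to 23805098, on the minus strand.

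Cck, the cholecystokinin precursor, had log2 levels of 10.89, 11.06 and 11.00 in the MEC pairs, against 11.18, 11.09 and 11.35 in the LEC pairs. The regions did not overlap, but the difference of −0.22 ± 0.08 (SE) did not pass (adjusted p = 0.0683). It passed as lower with Cy3 readings only (−0.28, adjusted p = 0.036) and with files and dyes as labelled (adjusted p = 0.0225), and under both other scalings given below. The probe lies in mm8 on chromosome 9, 121338611 to 121338670, on the minus strand. A second kept Cck probe, at 121342094 to 121342153, differed by −0.05 in a fit over all kept probes (adjusted p = 0.5).

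The other 3 kept precursors gave small differences. Npy, the precursor of neuropeptide Y, had log2 levels of 6.13, 6.08 and 5.86 in the MEC pairs, against 6.16, 6.18 and 6.20 in the LEC pairs, a difference of −0.15 ± 0.07 (SE, adjusted p = 0.158). Vip, the precursor of vasoactive intestinal peptide, had 5.94, 6.05 and 6.06 in the MEC pairs, against 6.02, 6.02 and 5.90 in the LEC pairs, a difference of 0.04 ± 0.06 (SE, adjusted p = 0.646). For both genes many readings were not well above background, so a difference could be missed at this signal. The Vip probe is listed in mm8 on chromosome 10, 4699238 to 4699297, on the minus strand. The Vip promoter window shown above lies on the plus strand. Whether this probe reads the Vip transcript was not tested. Tac1, the substance P precursor, gave 6.65, 6.66 and 6.88 in the MEC pairs, against 6.64, 6.40 and 6.57 in the LEC pairs (0.19 ± 0.08, SE, adjusted p = 0.13). For Npy and Tac1 the regions did not overlap. Full separation of 3 against 3 pairs reaches only p = 0.1 in an exact permutation test. Tac1 passed as higher in MEC with Cy3 readings only (0.27, adjusted p = 0.0402). That probe was designed on a cDNA clone rather than on the RefSeq transcript. The RefSeq probe of Tac1 was not kept, with 4 of 12 readings well above background in MEC and 4 of 12 in LEC, and neither was another probe on the same clone, with 3 of 24.

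**Figure D2:**
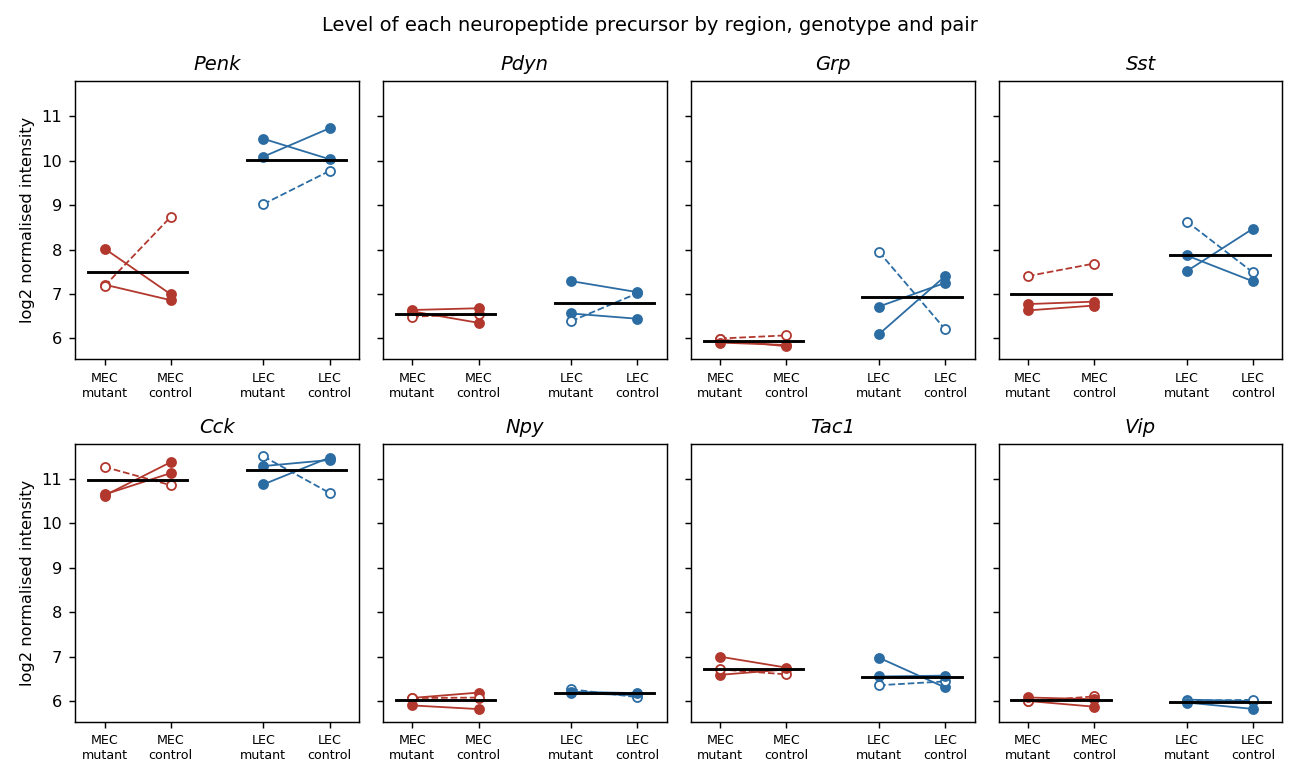
Log2 normalised intensity of each kept precursor by region and genotype. A line joins the mutant and control of 1 pair, open points with dashed lines are replicate 2, and the black bar is the mean of the region over 3 pairs. Penk stands at a mean of 7.50 in MEC and 10.02 in LEC, and its pairs run in both directions between genotypes.

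The scaling between arrays moved the background of these differences. With median centring of each array the median over all genes was −0.19, with 152 genes higher and 5828 lower in MEC, and with no normalization between arrays it was −0.27, with 77 higher and 8185 lower; with quantile normalization the split was 1288 higher and 1509 lower. Penk (−3.04 and −3.12), Grp (−1.17 and −1.25) and Sst (−1.28 and −1.36) passed under both, and each lay below the median of all genes there. Under median centring, Cck (−0.85, adjusted p = 0.00121), Pdyn (−0.52, 0.0333) and Npy (−0.21, 0.0304) passed as lower too, and Npy then lay about at the median of all genes. Tac1 changed sign under both scalings and Vip with no normalization, but both stayed above the median of all genes there.

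**Figure D3:**
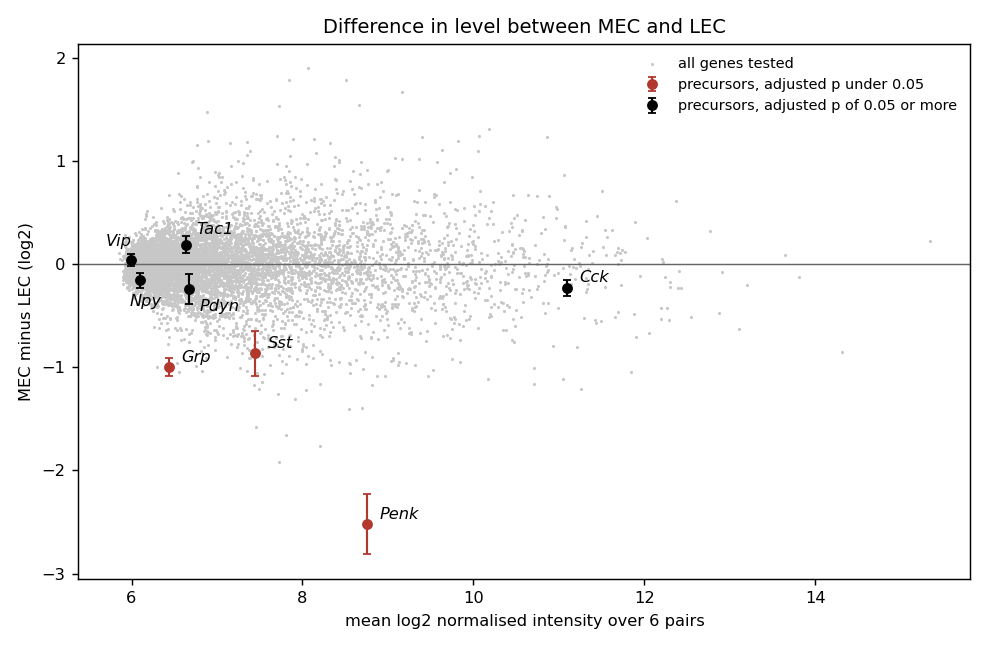
MEC minus LEC difference (log2) against mean log2 normalised intensity over 6 pairs. Grey points are all 10894 genes, larger points are the 8 kept precursors with limma's standard error, and red marks an adjusted p under 0.05. Penk lies lowest at −2.52, with Grp at −0.998 and Sst at −0.86, and the other 5 lie between −0.24 and 0.19.

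Signs of other cells moved with region and stand beside these differences. Over all genes, 11.8% were called higher and 13.9% lower in MEC. Of the inhibitory neuron markers, 5 of 13 kept were higher in MEC and 0 were lower, among them Pvalb (0.55, adjusted p = 0.001) and Htr3a (1.02, adjusted p = 0.009). The list's mean log2 level was 7.07 to 7.18 in the MEC pairs, against 6.89 to 6.93 in the LEC pairs, the opposite direction to Sst. Lhx6 (−0.26, adjusted p = 0.066), Lamp5 (−0.13) and Maf (−0.11) pointed the same way as Sst without passing. With processed signals 5 of the list were called higher and 1 lower, and under median centring 1 was higher and 3 were lower. Of the markers of striatum and amygdala, which are rich in Penk, 6 of 11 were kept and 2 were lower in MEC: Foxp1 (−0.35, adjusted p = 0.006) and Adora2a (−0.34, adjusted p = 0.010). Of these 6, 5 were lower under median centring and 6 with no normalization between arrays. Under both scalings most of all genes were called lower too, as given above. The list's mean level was 6.52 to 6.57 in the MEC pairs, against 6.69 to 6.77 in the LEC pairs. Its defining markers Drd1, Drd2 and Ppp1r1b were not kept. The part of striatal or amygdalar tissue in the Penk difference was not tested.

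The rest of the peptide pathway was read from lists chosen together with the members. Of 42 other peptide precursors, 38 were on the array and 18 were kept, and the median difference was −0.07. Pyy (peptide YY, −0.28 ± 0.05, SE, adjusted p = 0.006), Nts (neurotensin, −0.20 ± 0.06) and Nppb (brain natriuretic peptide, −0.18 ± 0.05) were lower in MEC and Gal (galanin, 0.23 ± 0.07) was higher. These 3 lower and 1 higher of 18 stand beside 13.9% lower and 11.8% higher over all genes. In MEC, Nts was well above background in 6 of 12 readings and Nppb in 7 of 12, against 11 of 12 for each in LEC. Gal turned to −0.06 under median centring and −0.14 with no normalization, both above the median of all genes there.

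The machinery that cuts and stores peptides held calls in both directions. Of 19 genes of processing and dense-core granules, 14 were kept, 5 were higher in MEC and 1, the protease Furin (−0.25 ± 0.06), was lower. Over all genes 11.8% were called higher and 13.9% lower. The median difference of the 14 was 0.04. Chgb, the granule protein chromogranin B, had log2 levels of 12.56, 12.71 and 12.78 in the MEC pairs, against 12.00, 11.93 and 12.26 in the LEC pairs (0.62 ± 0.09, SE, adjusted p = 0.004). Cpe, the carboxypeptidase that trims cut peptides, was higher by 0.98 ± 0.21, Pcsk2, a prohormone convertase, by 0.39 ± 0.09, and Scg5, the chaperone of that convertase, by 0.29 ± 0.05. These calls rested on the scaling: under median centring none of the 14 was called higher and 6 were lower, with Chgb at 0.13, Cpe at 0.49, Pcsk2 at −0.21 and Scg5 at −0.33.

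Receptors were sparsely measured. Of 4 opioid receptor genes, only Oprl1, the nociceptin receptor, was kept (−0.07 ± 0.07, SE, adjusted p = 0.507), so the receptors for enkephalin and dynorphin were not analysed. Of 23 other peptide receptor genes, 9 were kept. Vipr1, a receptor for Vip, was lower in MEC (−0.46 ± 0.09, SE, adjusted p = 0.008) and Crhr1, the receptor for the Crh peptide, was higher (0.26 ± 0.07, adjusted p = 0.024). Under median centring Crhr1 turned to −0.05, above the median of all genes there. The receptors Crhr2 (−0.12) and Adcyap1r1 (0.07) did not pass. Of 10 peptidases, 4 were kept and Anpep, an aminopeptidase, was lower (−0.18 ± 0.05, adjusted p = 0.034), while Prep (−0.12), Ece1 (−0.20) and Ace (−0.11) did not pass.

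For each kept precursor, the 3 named genes most like it were found by Pearson correlation of log2 intensity over the 12 arrays. The arrays share pairs and scan sessions, so the values are descriptive. For Penk these were Ptpro (0.98), Celf1 (0.98) and Tekt1 (0.97). For Grp they were Prmt2 (0.98), Dio3 (0.97) and Nr2f2 (0.97), and for Sst they were Parm1 (0.97), Efhd2 (0.96) and Hrh3 (0.96). For Cck they were Rnft2, Vps37b and Septin5 (0.97 to 0.93), for Pdyn Bpifa5, Dtnb and Wipf3 (0.95 to 0.93), for Npy Ghsr, Klc4 and Znhit2 (0.95 to 0.94), for Tac1 Adgrg3, Trim63 and Rpl21 (0.96 to 0.93) and for Vip Cd300c2, Psat1 and Pum2 (0.92 to 0.90).

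The second comparison asked whether loss of Naglu altered the precursors in either region. No precursor passed the test in MEC, in LEC, averaged over both or in the difference between regions, and for each of these comparisons the share called over all genes was 0%. At an unadjusted p of 0.05 the counts over all genes were 123 in MEC, 170 in LEC, 243 for the average and 59 for the difference, and 0 of the 8 precursors were among them. The mutant ratios of Penk, Grp, Sst and Cck were nevertheless large in single pairs and changed sign from pair to pair.

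Penk had log2 mutant over control ratios of 0.35, −1.56 and 1.03 in the MEC pairs, and 0.46, −0.75 and −0.64 in the LEC pairs. Mutants were thus above controls in 3 of 6 pairs. The means were −0.06 ± 1.34 in MEC and −0.31 ± 0.67 in LEC (SD, n = 3 each). With replicate 2 turned as labelled, all 3 MEC pairs lay above 0 and the mean was 0.98 ± 0.29 (SE), which did not pass (adjusted p = 0.428).

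Grp was flat in MEC, where it was near background (0.15, −0.07 and 0.05), and gave −0.53, 1.74 and −1.30 in LEC. The LEC mean was −0.03 ± 1.58 (SD, n = 3). Turned as labelled, all 3 LEC pairs lay below 0 with a mean of −1.19 ± 0.19 (SE, adjusted p = 0.347).

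Sst likewise moved little in MEC (−0.06, −0.28 and −0.11) and gave −0.96, 1.15 and 0.58 in LEC. The LEC mean of 0.26 ± 1.09 (SD, n = 3) became −0.51 with replicate 2 turned. Cck gave −0.48, 0.41 and −0.75 in MEC, and −0.60, 0.82 and −0.14 in LEC. Turned as labelled, mutants were below controls in all 6 Cck pairs, with means of −0.55 in MEC (adjusted p = 0.428) and −0.52 in LEC (adjusted p = 0.454).

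Pdyn had ratios of 0.26, −0.05 and −0.04 in MEC, and 0.12, −0.63 and 0.25 in LEC. Tac1 had −0.12, 0.11 and 0.24 in MEC, and 0.67, −0.09 and −0.02 in LEC. Npy ratios ran from −0.12 to 0.18 and Vip ratios from −0.11 to 0.14 over the 6 pairs. None of these 4 passed.

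Both dye orientations gave the same picture for the large ratios. The 2 arrays of a pair had the same sign in 6 of 6 pairs for Penk, with a largest gap of 0.25 between them. They agreed in sign in 5 of 6 pairs for Sst, with a largest gap of 0.23, and in 5 of 6 for Cck, with a largest gap of 0.42. Grp agreed in 3 of 6 pairs, the 3 in LEC. For Vip the 2 arrays had opposite signs in all 6 pairs. Over all genes, the share of same signs per pair was 31.7% to 52.8%.

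**Figure D4:**
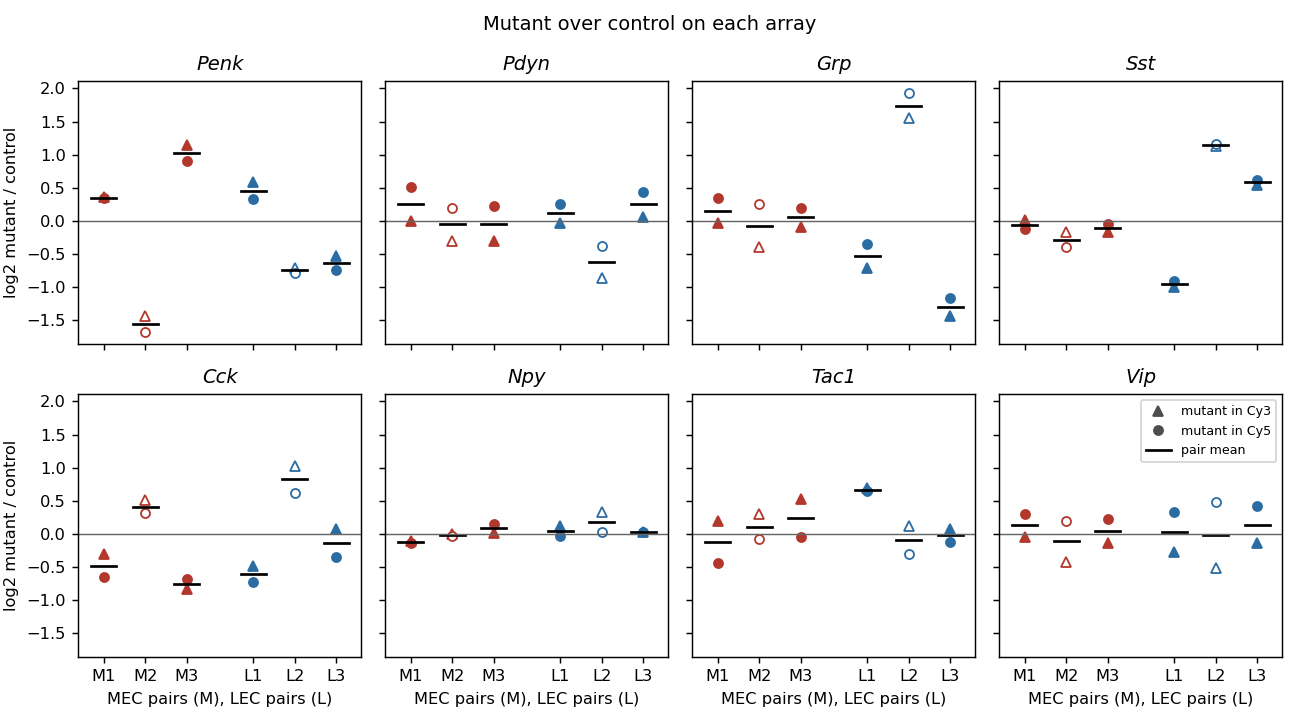
Log2 mutant over control on each array, for 3 MEC and 3 LEC pairs per precursor. Triangles are arrays with the mutant in Cy3, circles arrays with the mutant in Cy5, bars are pair means, and open symbols are replicate 2 with the sign of the value table. For Penk both arrays of every pair lie on the same side of 0, with pair means between −1.56 and 1.03.

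The size of the ratio can be stated without its sign, so that the unsettled direction of replicate 2 plays no part. The root mean square of the ratio over 6 pairs was 0.92 for Grp, 0.89 for Penk, 0.67 for Sst and 0.58 for Cck. The median over all 10894 genes was 0.14 and the 95th percentile 0.41. These 4 precursors thus stood at percentiles 99.7, 99.7, 99.1 and 98.4, while Tac1 and Pdyn stood at percentile 88 and Npy and Vip at percentiles 23.1 and 21.1. By mean intensity the percentiles were 48.9 for Grp, 93.2 for Penk, 80.1 for Sst and 99.3 for Cck. They were 58.6 for Tac1, 60.0 for Pdyn, 14.2 for Npy and 2.79 for Vip. The part of intensity in the size of the ratios was not tested. The ratio sizes describe pairs that differ from one another, and no effect of genotype was shown.

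Other genes moved within the same pairs. In LEC replicate 2, where the ratios of Grp, Sst and Cck were largest in size, the mean ratio of astrocyte markers was 0.58 and of markers of blood, choroid plexus and meninges 0.81. The latter mean, over 5 kept markers, was carried mostly by Dcn (2.42) and Igf2 (1.12). Ttr read 0.50, Col1a2 0.09 and Hba-a1 −0.09. All of these change sign together if the pair is turned as labelled. The mean ratio of microglial markers was 0.56 there and, as given above, above 0 in the other 5 pairs too under the table's sign. The cosine between 2 sets of 6 pair ratios does not depend on a pair's sign. It was 0.86 between Grp and the astrocyte list, 0.87 between Grp and the blood, choroid plexus and meninges list, and 0.83 between Grp and the striatum and amygdala list. Sst (0.82) and Cck (0.84) were also near the last of these. Dcn, at 2.42 and −2.11 in LEC replicates 2 and 3, weighed heavily in the blood, choroid plexus and meninges list. The other members had lower values with the striatum and amygdala list: Npy 0.41, Vip −0.30, Penk −0.51, Tac1 −0.60 and Pdyn −0.82. Penk was nearest to the inhibitory neuron list (0.71). With the microglial list the cosine was 0.30 for Grp, 0.32 for Sst and 0.03 for Cck. Between members, the values farthest below 0 were those of Grp and Pdyn (−0.87), Penk and Cck (−0.77), Npy and Pdyn (−0.76) and Cck and Pdyn (−0.71), and the highest were those of Sst and Cck (0.62) and Grp and Cck (0.56). The part of captured tissue in these ratios was not tested.

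**Figure D5:**
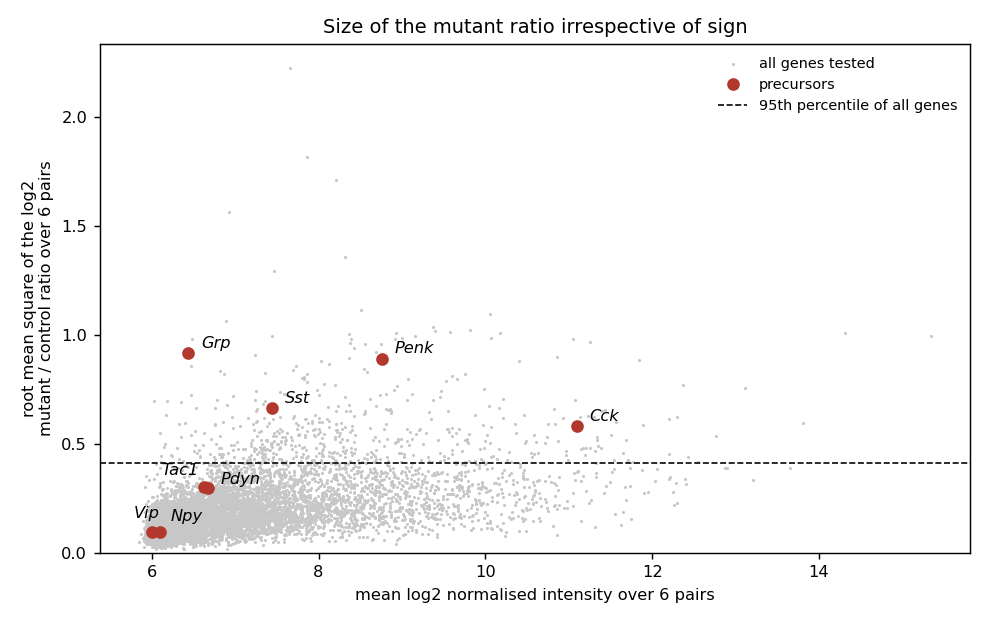
Root mean square of the log2 mutant over control ratio over 6 pairs against mean log2 normalised intensity over 6 pairs. Grey points are all 10894 genes, red points the 8 kept precursors, and the dashed line the 95th percentile at 0.41. Grp, Penk, Sst and Cck lie above the line, and Tac1, Pdyn, Npy and Vip below it.

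In the pathway lists, no gene passed for the mutant effect averaged over both regions. Among the genes with the smallest p, Pcsk2 had a ratio of 0.13 (adjusted p = 1.00) with mutants above controls in 6 of 6 pairs, or in 4 of 6 with replicate 2 turned as labelled. Chgb had a ratio of 0.56 (adjusted p = 1.00) with mutants above controls in 4 of 6 pairs, and in 4 of 6 turned. Both were named for their small p, which the direction of the pairs enters. The others chosen by the same rule were Nts (−0.10), Cartpt (0.06), Oprl1 (−0.02), Crhr2 (0.12), Tacr1 (−0.10), Ece1 (0.13) and Ace (−0.03).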

How the data were processed

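The deposited scanner files hold raw intensity for each dye (the mean signal of a spot and the median of its local background), intensity already subtracted for background and balanced between dyes by the authors' scanner software, a deposited log10 ratio of Cy5 over Cy3, and flags. Agilent Feature Extraction is version 9.5.1.1 per the file headers and 8.5.1.1 per the submitters' processing notes. The authors' value table holds log2 ratios whose centring and direction are not stated. Each of its columns was matched to an array over 9166 spots that passed the scanner's background flag in at least 20 of 24 readings. The size of the best correlation was 0.995 to 0.999, and that of the next best at most 0.657. On this basis 5 of 6 LEC files and 0 of 6 MEC files lie under another sample's name, and 4 arrays, those of replicate 2, have a sign opposite to the labelled dyes. The table's assignment and sign were used, and this choice was not blind to the values.

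The analysis used limma 3.58.1 in R 4.3.3. Normexp (offset 50) corrected the background, loess balanced the dyes, and mean log2 intensities were quantile-normalised between arrays. A probe was kept if, in 1 region and genotype, 4 or more of its 6 readings were well above background. A gene was read at its kept probe of highest mean intensity. The unit of replication was the mean of a pair's 2 arrays, 3 per region. Tests were limma's, two-sided, adjusted by Benjamini-Hochberg over 10894 genes, of which 9553 carried a name from RefSeq (GRCm38.p6). P-values measure the spread between these samples. An exact permutation test of 3 against 3 pairs cannot go below p = 0.1. The fit was tested on simulated data. Members, gene lists and the naming rule (for each list, the 4 smallest p between regions and 2 smallest for the mutant effect) were chosen with earlier results of these data known. Alternatives covered signals, filters, scaling, channels, probes, direction and left-out pairs.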

Additional observations from a re-analysis of the deposited data

Results flagged for a closer look

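In LEC replicate 2, the log2 mutant over control ratio of Pdyn was −0.63, far below the other 5 pairs, which lay between −0.05 and 0.26. Its gap to the next pair made up 0.65 of the range of all 6 pairs, above Dixon's 95% critical value for 6 values. Chance alone sets apart about 1 in 20 such groups, and 8 precursors were examined. The sign of this pair is that of the value table, and the dyes as labelled give the opposite sign. Turned that way, the pair is the highest at 0.63 and its gap makes up 0.55 of the range, below the critical value, so it is no longer set apart. Both arrays of the pair lay below 0.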

How the results depend on the processing

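Penk was lower in MEC in 20 of 20 alternatives, Grp in 18 of 20 and Sst in 13 of 20 at an adjusted p of 0.05, and no alternative turned the sign of these 3. Every alternative read Penk at the same probe, so none took in its second probe, which did not show the difference. Against 2797 genes called between regions, 740 were called without replicate 2 of both regions, 5980 with median centring, 8262 with no normalization between arrays, 387 with mutant channels and 551 with control channels only. Leaving out 1 pair gave 1732 (without MEC replicate 1) to 2599 genes, with 1775 without LEC replicate 2. For Tac1 the level difference turned to −0.081 with median centring and −0.16 with no normalization, both above the median of all genes there. For Vip it turned to −0.062 with no normalization and −0.029 with Cy5 readings, and ran from −0.00031 to 0.079 with 1 pair left out. The mutant effect averaged over regions had 1 called gene with processed signals, and 0 to 1 with 1 pair left out, as in MEC. No alternative gave a called precursor for the mutant effect in MEC or LEC, and the cause of the sign changes below was not tested.

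In MEC, Penk turned to 0.20 with processed signals and with the value table's ratios (0.2), to 0.98 with replicate 2 turned or with files and dyes as labelled, and to 0.69 without replicate 2. Sst turned to 0.039 with replicate 2 turned or as labelled, and Vip to −0.17 with processed signals. With 1 pair left out the MEC ratios ran from −0.60 to 0.69 for Penk, −0.0079 to 0.10 for Grp, −0.065 to 0.036 for Npy, −0.036 to 0.084 for Vip, −0.0046 to 0.18 for Tac1 and −0.045 to 0.11 for Pdyn. In LEC, replicate 2 turned gave 0.19 for Penk, −0.51 for Sst, −0.033 for Npy, −0.52 for Cck and 0.33 for Pdyn. Files and dyes as labelled gave 0.59 for Grp, −0.00018 for Vip and −0.0046 for Tac1. Without replicate 2, LEC gave −0.19 for Sst, −0.37 for Cck and 0.18 for Pdyn. With 1 pair left out the LEC ratios ran from −0.92 to 0.60 for Grp, −0.19 to 0.86 for Sst, −0.37 to 0.34 for Cck, −0.053 to 0.32 for Tac1 and −0.25 to 0.18 for Pdyn.

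With the replicate block, 2400 genes were called between regions and the calls of the 8 precursors did not change. Pairs of the same number did not deviate together (correlations of levels −0.06, 0.01 and −0.03 between MEC and LEC). For the mutant ratios the correlations were −0.18, −0.0009 and −0.36. The highest with an LEC pair of another number were 0.11, 0.33 and 0.44. The ratio values depend on the direction of replicate 2. A scan session or slide as a block was not possible, since each region had its own session and each slide 1 array. The fit over single probes was chosen after seeing the data. Limits are the 3 pairs per region, dim signals, 1 scan session per region and the unsettled direction of replicate 2.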

Other observations

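The genes whose mutant ratios ran most like those of a precursor over the 6 pairs were ranked by the cosine, which does not depend on a pair's sign. For Penk they were Zmat3 (0.98), Map7 (0.97) and Setd7 (0.97). For Grp they were Dio3 (0.99), which inactivates thyroid hormone, Rgma (0.99), a guidance protein, and Slc6a13 (0.97), a GABA transporter. For Sst they were D2hgdh (0.98), Timd2 (0.98) and Lima1 (0.97), and for Cck they were Maf (0.99), a transcription factor of cortical interneurons, Cchcr1 (0.98) and Cyren (0.98). Dio3 was also among the 3 genes most like Grp in level over the 12 arrays (0.97). These are the highest values among the named genes kept, over 6 pairs, and are given as a description.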
